A study of Rattus norvegicus with 12 samples.

Results

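The comparison of abdominal aortic banding surgery (ABS) with sham surgery at postnatal day 7 used 6 of the 12 RNA sequencing libraries of the series. There were 3 from each group, chosen by their labels. The day was chosen as the one with tight replicates. The pups were Sprague-Dawley rats of both sexes, operated on postnatal day 1. In the ABS group, a suture tied around the abdominal aorta narrowed it. The control group had sham surgery, whose steps the study's methods do not describe. The other 6 libraries were from the same surgery groups at postnatal day 3. The study allotted 3 pups to each group for sequencing. The labels give neither the sex nor the litter of a pup, so differences of sex or litter between the groups cannot be told apart from the surgery. The tissue is the left ventricle (LV) by the study's methods, whereas the labels name left ventricular myocardiocytes, and it could not be checked against marker genes because no table used here pairs the gene identifiers with symbols. For the same reason, genes are given by the identifiers in the files (Ensembl rat genes, or numbered rows of the authors outside Ensembl, which are not named here), without a symbol, function or position.

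A narrowed aorta raises the pressure against which the LV ejects, a state called left ventricular pressure overload (LVPO). In the adult heart, cardiomyocytes (CMs) under LVPO enlarge and switch on a program of natriuretic peptide and fetal sarcomere genes. CMs of newborn rodents can still divide and lose most of this ability within the first days of life. In a whole LV, fewer cells of a type and less RNA per cell cannot be told apart.

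Library totals were 16052101, 14268210 and 15365637 counts for the ABS replicates and 14291538, 16102725 and 14669721 counts for the sham replicates, each in the order 1 to 3. Each library had 18579 to 18982 rows with at least 1 count. Levels are given as CPM, the counts of a gene scaled to a common library total, with totals adjusted by the TMM method (factors of 0.985 to 1.01). They are shares of a library's counts and are not corrected for gene length. Sham replicate 2 stood apart from the other 5 libraries in a small set of genes, and the comparison was also made without it.

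Most LV genes differed little between ABS and sham at postnatal day 7. Of the 14635 genes tested, 9368 (64.0%) were well expressed, with a mean of at least 10 CPM over the 6 libraries, and they held 97.8% to 97.9% of the counts of each library. In these genes the median size of the difference, without regard to direction, was 0.069 on the log2 scale, which is 1.05-fold. In 90% of them the difference was under 1.15-fold. A difference over 1.25-fold was measured for 98 genes with higher and 139 with lower ABS values, over 1.5-fold for 22 and 28, and over 2-fold for 7 and 9.

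None of the 14635 genes (0%) had an adjusted p under 0.05 in edgeR's quasi-likelihood test with Benjamini-Hochberg adjustment, and the smallest adjusted p was 0.205. At an unadjusted p under 0.05, 216 genes (1.48% of those tested) were higher and 282 (1.93%) were lower in the ABS group. The 9368 well-expressed genes held 128 of the higher and 177 of the lower ones, together 3.26% of them. Limma with voom gave 0 genes at the adjusted threshold and 500 at the unadjusted one. DESeq2 gave 15 genes at the adjusted threshold, 4 higher and 11 lower, and 406 at the unadjusted one. Of these 15 genes, 12 were well expressed (ABS higher in 1, lower in 11). In all 12 the ABS libraries lay apart from the sham libraries, beside 8.35% of all well-expressed genes. The calls and the separation come from the same libraries, so the separation is no further support for the calls.

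**Figure D1:**
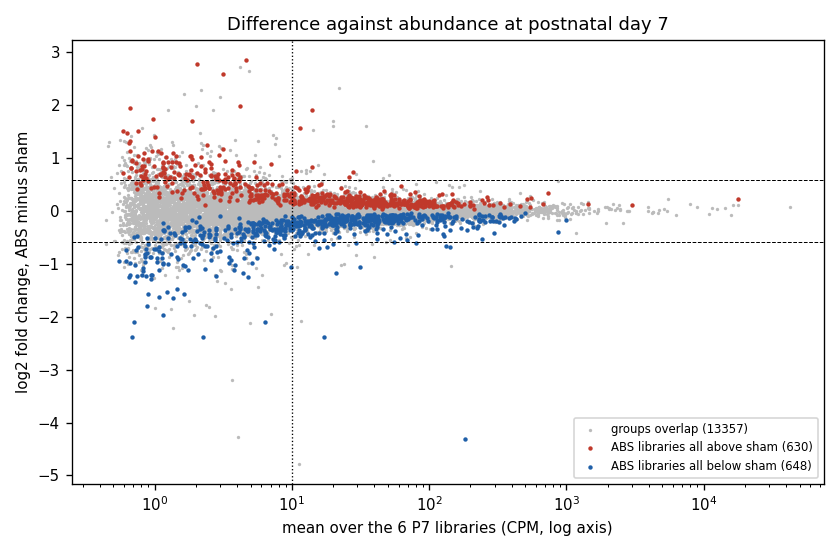
Log2 fold change of ABS against sham at postnatal day 7 (vertical axis) against mean CPM on a log axis (horizontal axis) for each gene tested, 1 point per gene. Genes of higher abundance lie closer to 0, and few well-expressed genes lie beyond 2-fold.

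Intervals show how large a change each gene's libraries still allow. For each gene, the 95% interval of the log2 fold change was computed from the standard error of edgeR's fit. Each interval holds for 1 gene and not for all genes jointly. The median interval of the well-expressed genes reached 0.23 log2 units (1.17-fold) to either side of the measured difference. The whole interval lay inside 1.5-fold in either direction for 8634 of 9368 genes (92.2%) and inside 2-fold for 9189 (98.1%). In the other 179 genes, a change of more than 2-fold in at least 1 direction lay within the interval. The interval lay wholly beyond 1.25-fold for 2 genes above and 5 genes below sham, and wholly beyond 1.5-fold for 0 higher and 1 lower. These values are from the fit of the 6 libraries. In one fit of all 12 libraries, 3263 well-expressed genes had an interval inside 1.5-fold in place of 8634.

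Intervals were narrower in genes of higher abundance up to 100 CPM, and differed little in width above it. Among the 5267 tested genes under 10 CPM, the median half-width was 0.68 log2 units and 18.7% of intervals lay inside 1.5-fold. For the 3746 genes of 10 to 30 CPM, the half-width was 0.29 and 87.3% lay inside. It was 0.20 with 95.3% inside for the 3886 genes of 30 to 100 CPM. Among 1319 genes of 100 to 300 CPM, the values were 0.18 and 95.5%, and among 344 genes of 300 to 1000 CPM they were 0.19 and 96.5%. The 73 genes of at least 1000 CPM had a half-width of 0.21 and 91.8% of intervals inside. The intervals of the most abundant genes were thus no narrower than those of genes of 30 to 1000 CPM.

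**Figure D2:**
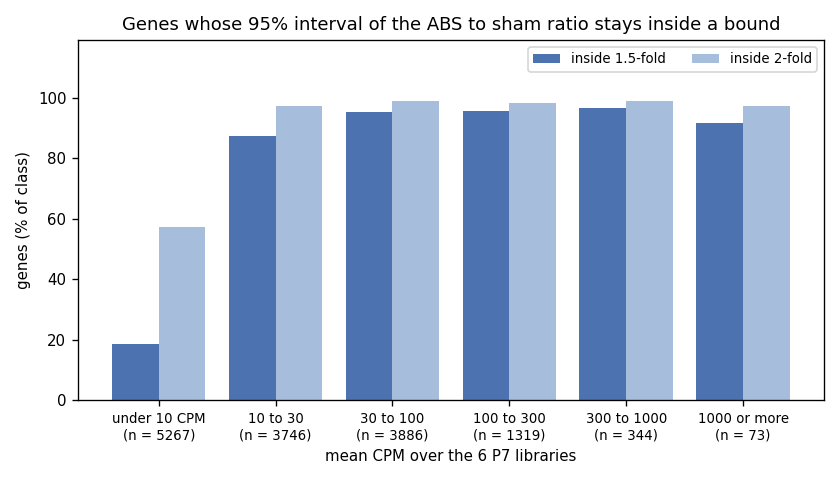
Share of genes whose 95% interval at postnatal day 7 lies inside 1.5-fold and inside 2-fold, as bars by class of mean CPM. The share inside 1.5-fold rises from 18.7% under 10 CPM to 96.5% at 300 to 1000 CPM and is 91.8% at 1000 CPM or more.

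The 157 well-expressed rows outside Ensembl are given apart from the 9211 Ensembl genes. Their median size of difference was 0.11 log2 units, against 0.07 for the Ensembl genes. An unadjusted p under 0.05 was found for 8.28% of these rows, 8 higher and 5 lower, and for 3.17% of the Ensembl genes. Separation of the libraries did not show the same contrast, with 8.92% of these rows and 8.34% of the Ensembl genes not overlapping between the groups. Of their intervals, 71.3% lay inside 1.5-fold, against 92.5% for the Ensembl genes. These contrasts between kinds of row are descriptions and were not tested.

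The groups did not overlap for 782 well-expressed genes, meaning that all 3 ABS libraries lay on one side of all 3 sham libraries. ABS was higher in 384 of them and lower in 398. Over all genes tested, 4.3% were higher and 4.43% lower in this way. Over the well-expressed genes 8.35% did not overlap in either direction. This was near the 8.73% of all genes tested, 64% of which were themselves well expressed. With 3 against 3, separation alone has an exact permutation p of 0.1, so these numbers are descriptions. The 384 higher genes had a median difference of 0.17 log2 units (1.12-fold, range 0.04 to 1.91), and 105 of them had an unadjusted p under 0.05. The 398 lower genes had a median of -0.18 (0.88-fold, range -4.31 to -0.04), and 143 of them had an unadjusted p under 0.05. Differences over 1.5-fold were found in 6 of the higher and 12 of the lower genes.

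In most of these 782 genes the groups were separated by a narrow gap. The lowest library of the higher group was a median of 1.02 times the highest library of the other group when ABS was higher, and 1.03 times when ABS was lower. The gap was over 1.1 times in 24 genes with higher and 43 genes with lower ABS values. It was over 1.25 times in 0 and 5 genes. Of the 16 well-expressed genes that differed by over 2-fold, 10 overlapped between the groups, and in these 10 the highest library was a median of 11.0 times the lowest.

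At postnatal day 3, the same genes were examined in the other 6 libraries. Of the 384 genes with higher ABS values, 217 (56.5%) were also higher at postnatal day 3, against 2470 of 4652 (53.1%) among all well-expressed genes higher at postnatal day 7. Of the lower genes, 232 of the 397 tested on both days (58.4%) were also lower, against 2542 of 4711 (54.0%). Over all 14222 genes tested at the earlier day, 1.9% did not overlap with ABS higher and 1.62% with ABS lower. Of the 384 genes, 10 (2.6%) were again not overlapping and higher, and 5 (1.3%) were not overlapping and lower. Of the 397 genes, 4 (1.01%) were again not overlapping and lower, and 4 (1.01%) were not overlapping and higher. These shares were near those of all genes. The interaction of surgery and day gave 0 of 15236 genes with an adjusted p under 0.05 in edgeR's quasi-likelihood test, 176 at an unadjusted p under 0.05, and 5 with DESeq2 at the adjusted threshold.

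The bounds at postnatal day 3 were much wider. Postnatal day 7 was chosen as the day with tight replicates, so this contrast restates the choice and is no separate result. Over the 9363 well-expressed genes tested on both days, the median half-width was 0.23 log2 units (1.17-fold) at postnatal day 7 and 0.86 (1.81-fold) at postnatal day 3. The interval lay inside 1.5-fold for 8633 genes (92.2%) at the later day and for 346 (3.7%) at the earlier one. The biological coefficient of variation, which is the relative spread between libraries of a group, was 0.148 and 0.544. Most genes bounded within 1.5-fold at postnatal day 7 were not bounded so at the earlier day, as the choice of day had set, and no conclusion is drawn from this.

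A pair of genes in each direction is given in full, the gene of smallest p from edgeR and that from DESeq2 among the 248 well-expressed genes with no overlap and an unadjusted p under 0.05 (105 higher, 143 lower). The use of DESeq2 in this choice was made after the values were seen.

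A numbered row outside Ensembl had the smallest p among the lower genes in edgeR's test. It was at 42.7, 46.0 and 43.8 CPM in ABS replicates 1 to 3 and at 68.8, 62.5 and 69.2 CPM in sham replicates 1 to 3. The groups were 44.2 ± 1.67 CPM in ABS and 66.8 ± 3.78 CPM in sham (SD, n = 3 each), with little spread in either and a wide gap between them. Its log2 fold change was -0.60 (standard error 0.08, 95% interval -0.77 to -0.42), with an adjusted p of 0.205 from edgeR and 0.000111 from DESeq2. At postnatal day 3 its level was lower in all libraries and in the other order, with 11.2, 13.6 and 29.2 CPM in ABS and 10.0, 10.3 and 6.84 CPM in sham. The row's interaction of surgery and day was -1.57 log2 units (standard error 0.45, adjusted p 0.99998 from edgeR).

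ENSRNOG00000012067 had the largest fold difference of the 782 genes and the smallest p among the lower genes with DESeq2. It was at 15.7, 17.9 and 19.2 CPM in ABS and at 612, 202 and 234 CPM in sham, so every sham library was far above every ABS library. The group levels were 17.6 ± 1.81 CPM and 349 ± 228 CPM (SD, n = 3 each), with sham replicate 1 well above the other sham libraries. The ABS level was 19.8-fold lower, a log2 fold change of -4.31 (standard error 0.59, 95% interval -5.88 to -2.74), with an adjusted p of 1.00 from edgeR and 1.59e-12 from DESeq2. Without sham replicate 1, the log2 fold change was -3.63 and the adjusted p from edgeR was 1.71e-06. Leaving out any other single library gave an adjusted p of 0.640 or more from edgeR. Sham replicate 1 held the highest level of this gene, so the fit without it is no separate support. With all 6 libraries, this was the single gene whose interval lay wholly beyond 1.5-fold. Its low level was not found in ABS libraries alone. At postnatal day 3 it was at 337, 637 and 694 CPM in ABS and at 29.8, 547 and 411 CPM in sham, so that over the 12 libraries 8 were above 100 CPM and 4 were below 30 CPM. The interaction of surgery and day for this gene was -5.05 log2 units (standard error 1.14, adjusted p 1.00 from edgeR).

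ENSRNOG00000004162 had the smallest p among the higher genes in edgeR's test. Its ABS libraries were at 38.1, 24.9 and 32.8 CPM and its sham libraries at 20.2, 19.6 and 21.9 CPM. The group levels were 31.9 ± 6.60 CPM in ABS and 20.6 ± 1.16 CPM in sham (SD, n = 3 each), so the spread was mainly in ABS. The log2 fold change was 0.64 (standard error 0.15, 95% interval 0.31 to 0.96), with an adjusted p of 1.00 from edgeR and 0.126 from DESeq2. At postnatal day 3 the groups overlapped, with 6.24, 3.73 and 13.6 CPM in ABS and 11.2, 3.67 and 2.76 CPM in sham. The gene's interaction of surgery and day was 0.24 log2 units (standard error 0.75, adjusted p 0.99998 from edgeR).

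ENSRNOG00000029911 had the smallest p among the higher genes with DESeq2. It was at 33.0, 28.1 and 43.6 CPM in ABS and at 23.5, 18.3 and 21.5 CPM in sham. The group levels were 34.9 ± 7.93 CPM and 21.1 ± 2.61 CPM (SD, n = 3 each), again with the wider spread in ABS. The log2 fold change was 0.73 (standard error 0.17, 95% interval 0.35 to 1.10), with an adjusted p of 1.00 from edgeR and 0.0487 from DESeq2. At postnatal day 3 it was at 21.0, 11.3 and 11.5 CPM in ABS and at 10.5, 24.9 and 26.3 CPM in sham, and the groups overlapped. The gene's interaction of surgery and day was 1.24 log2 units (standard error 0.50, adjusted p 0.99998 from edgeR). As these 4 genes were chosen among those with no overlap, the choice itself sets their exact permutation p at 0.1, the smallest that 3 against 3 allow, and it is no further support.

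**Figure D3:**
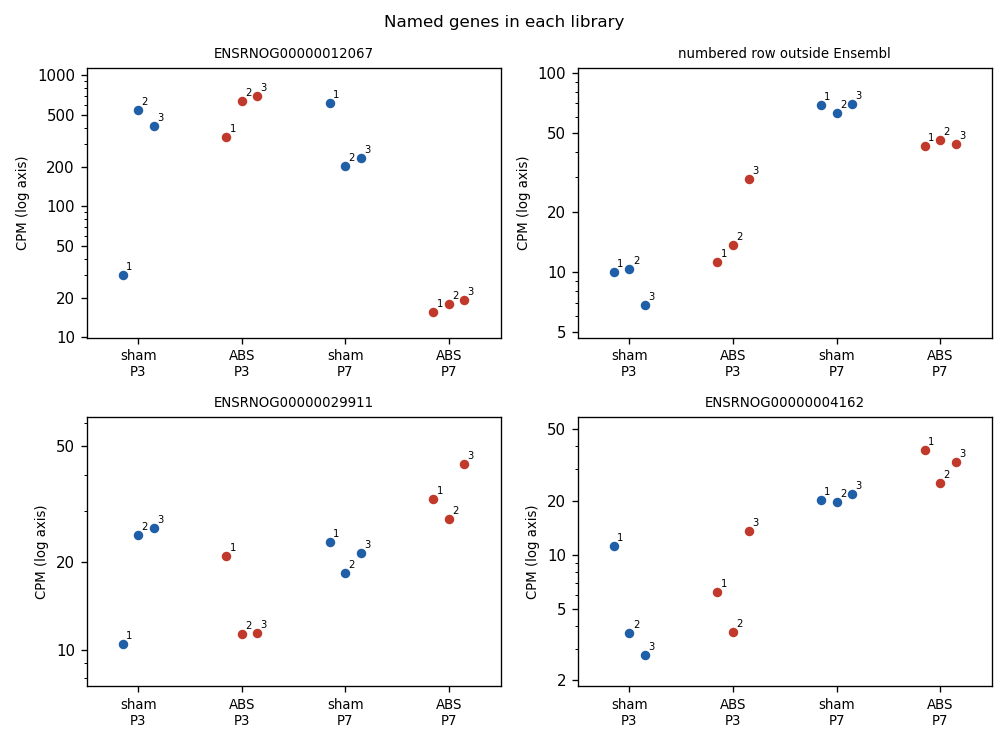
CPM on a log axis of the 4 genes given in full, with 1 point per library, numbered by replicate, for sham and ABS at postnatal days 3 (P3) and 7 (P7). The ABS and sham points at P7 do not overlap in any of the 4, and at P3 they overlap in all but the numbered row, where ABS is higher.

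Among the other DESeq2 calls, 9 well-expressed genes were lower in ABS, with log2 fold changes of -1.18 to -0.37 and mean levels of 18.1 to 866 CPM. The largest of these differences was in a gene at 9.62, 13.4 and 15.5 CPM in ABS and 18.6, 27.9 and 40.8 CPM in sham. Next was a gene at 16.3, 21.7 and 23.0 CPM in ABS and 27.4, 37.0 and 62.1 CPM in sham. In both, the 95% interval from edgeR's fit lay below 0, at -1.97 to -0.40 and -1.90 to -0.21. The remaining non-overlapping genes with a difference over 2-fold had intervals that held 0.

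The 20 most abundant genes of the LV took similar shares of the counts in both groups, with overlapping libraries. They held 22.3%, 23.8% and 21.0% of the counts in ABS replicates 1 to 3 and 21.6%, 22.3% and 21.2% in sham replicates 1 to 3. The group shares were 22.4% ± 1.39 in ABS and 21.7% ± 0.538 in sham (SD, n = 3 each, exact permutation test, two-sided, p = 0.7). With 1 library left out, log2 fold changes of the 20 genes were between -0.26 and 0.37. With all 6 libraries they were between -0.08 and 0.23. The 95% interval lay inside 1.25-fold for 12 of the 20, inside 1.3-fold for 16, inside 1.5-fold for 18 and inside 2-fold for all 20. For the 50 most abundant genes, these counts were 36, 42, 47 and 50.

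ENSRNOG00000034234, the most abundant gene, was at 43028, 49454 and 37475 CPM in ABS and at 40850, 42157 and 40680 CPM in sham. The ABS libraries lay on both sides of the sham libraries. The ABS level was 1.05-fold that of sham, with an interval of 0.884- to 1.25-fold, so changes beyond this range lay outside the 95% interval. ENSRNOG00000025757, the second in abundance, was the single gene of the 20 whose groups did not overlap, beside 8.73% of all genes tested. It was at 18176, 19694 and 19916 CPM in ABS and 16192, 18101 and 14970 CPM in sham, 1.17-fold higher (interval 1.01 to 1.36) with an unadjusted p of 0.0404 from edgeR, the only one of the 20 under 0.05, beside 3.4% of all genes tested. ENSRNOG00000031979, the third, was at 18050, 20481 and 16334 CPM in ABS and 17213, 18005 and 15954 CPM in sham, or 1.07-fold (interval 0.912 to 1.26).

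The tightest bound of the 20 was that of ENSRNOG00000002840, at 5045, 5446 and 5757 CPM in ABS and 5375, 5500 and 5358 CPM in sham, which gave 1.00-fold with an interval of 0.881 to 1.14. The widest was that of ENSRNOG00000029886, at 3185, 4054 and 5133 CPM in ABS and 3654, 2917 and 6224 CPM in sham. Its interval of 0.530- to 1.76-fold came with the lowest and the highest library both in the sham group. ENSRNOG00000017786 had the next widest interval, of 0.789- to 1.74-fold. It was at 4748, 4628 and 8332 CPM in ABS and 5324, 4769 and 5037 CPM in sham, so that ABS replicate 3 alone stood above the other 5 libraries. Without that library its log2 fold change was -0.11 in place of 0.23. For ENSRNOG00000029886 it was 0.33 without sham replicate 3 and -0.26 without sham replicate 2, in place of -0.05. ENSRNOG00000016983 was at -0.20 in place of 0.02 without sham replicate 3. ENSRNOG00000034234 was at -0.04 in place of 0.07 without ABS replicate 2.

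**Figure D4:**
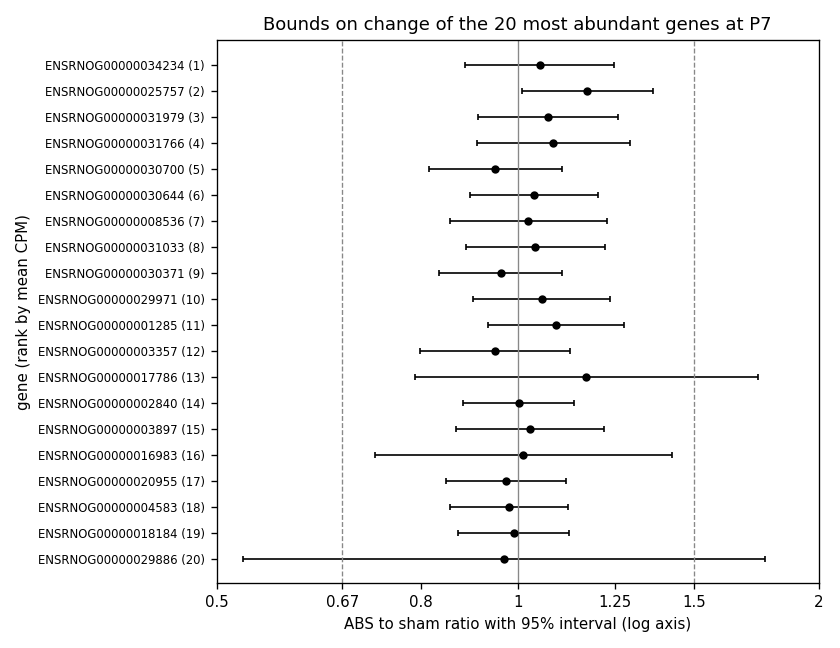
Fold change of ABS against sham at postnatal day 7, with its 95% interval as a bar, for the 20 genes of highest mean CPM, in order of abundance. All intervals lie inside 2-fold, and 19 of the 20 genes overlapped between the groups.

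Single libraries stood apart in a small number of genes. Over the well-expressed genes, the highest library was a median of 1.25 times the lowest, and in 90% of genes it was at most 1.58 times. The ratio exceeded 4 in 51 genes, and in 46 of these the groups overlapped. Within a group, it exceeded 4 in 23 genes for ABS and 32 genes for sham, and 2 in 178 genes for ABS and 112 genes for sham. ABS replicate 3 was the highest library in 2117 of the 9368 genes (22.6%) and sham replicate 2 in 1203 (12.8%), the most and the fewest. ABS replicate 3 was also most often the lowest library, in 1826 genes (19.5%), and sham replicate 2 least often, in 1062 (11.3%). Without ABS replicate 3, 938 genes had an unadjusted p under 0.05 (404 higher, 534 lower), in place of 498. In the other fits that left out 1 library the number was 443 to 513.

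Examples of such genes were picked after their values were seen. ENSRNOG00000037911 was at 158, 169 and 164 CPM in ABS and at 161, 2.93 and 184 CPM in sham, so sham replicate 2 alone was low. ENSRNOG00000047565 was at 0.802, 0.781 and 0.794 CPM in ABS and at 0.698, 0.997 and 64.2 CPM in sham, so sham replicate 3 alone was high. Both had 1 library far from the other 5. Both were also at a high level in ABS replicate 3 at postnatal day 3 (129 and 40.8 CPM), where the other 5 libraries were at 8.12 CPM or less.

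Other genes of this kind were split within both groups. ENSRNOG00000040005 was at 0.308, 38.5 and 21.8 CPM in ABS and at 0.488, 49.4 and 0.336 CPM in sham. ENSRNOG00000045747 was at 42.7, 47.8 and 1.12 CPM in ABS and at 1.33, 25.1 and 1.21 CPM in sham. The latter gene did not overlap between the groups at postnatal day 3, with 77.1, 7.52 and 34.4 CPM in ABS and 0.316, 1.46 and 1.49 CPM in sham (log2 fold change 5.19, 95% interval 2.79 to 7.58, adjusted p 1.00 from edgeR). Its log2 fold change at postnatal day 7 was 1.71, with a 95% interval of -2.97 to 6.38 that reached far to both sides of 0.

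**Figure D5:**
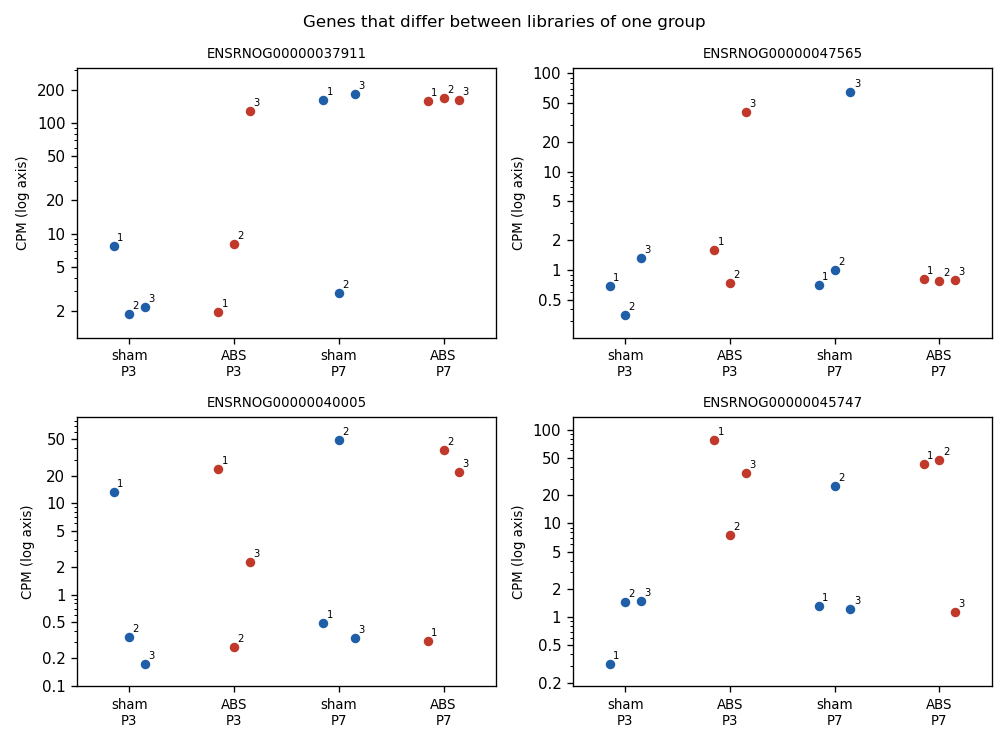
CPM on a log axis of 4 genes with large differences between libraries of one group, with 1 point per library, numbered by replicate, for sham and ABS at postnatal days 3 (P3) and 7 (P7). In the upper panels 1 library at P7 stands apart from the other 5, and in the lower panels both groups at P7 hold high and low libraries.

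Few rows with more than low counts were counted in only one of the groups. In 1383 rows only ABS libraries had counts, and the highest sum over the 3 libraries was 13 counts. In 1158 rows only sham libraries had counts, and 6 of these had a sum of 20 or more. In 53 rows every ABS library and no sham library had a count, and in 43 rows every sham library and no ABS library did, with at most 13 counts in either case.

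The 6 sham rows all had their counts in sham replicate 2 alone, so they did not separate the groups. They were followed up after their values were seen. They held 2924 counts in that library and 0 in each of the other 5 at postnatal day 7. For a single row, a count of 0 allows up to 3 counts, or 0.187 to 0.210 CPM in those 5 libraries. The most abundant of them, ENSRNOG00000057231, had 1466 counts in sham replicate 2. At the earlier day the 6 rows held 1531 counts in ABS replicate 1 and 4007, 1751 and 1885 counts in sham replicates 1 to 3, and 0 in ABS replicates 2 and 3. ENSRNOG00000055225 had the opposite pattern in all 12 libraries. It had 913, 935 and 687 counts in ABS and 822, 0 and 772 counts in sham at postnatal day 7, and 0, 671 and 909 counts in ABS and 0, 0 and 0 counts in sham at the earlier day. The 5 libraries with counts in any of the 6 rows thus had none in this gene, and the 7 libraries without had 671 counts or more. Of the 6 rows, ENSRNOG00000062152 had counts in only 3 of these 5 libraries. They were 20 in sham replicate 2 at postnatal day 7, and 14 and 11 in sham replicates 1 and 3 at the earlier day.

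Sham replicate 2 therefore stood apart from the other 5 libraries in a small set of genes. Without it, edgeR gave 443 genes at an unadjusted p under 0.05 and 2 at an adjusted p under 0.05, and 87.0% of the well-expressed genes had an interval inside 1.5-fold. Leaving out any other single library gave 1 to 3 genes at the adjusted threshold and 88.2% to 89.5% of intervals inside 1.5-fold. Without sham replicate 2, the log2 fold changes of the 4 genes given in full were 0.60 for ENSRNOG00000004162, 0.63 for ENSRNOG00000029911, -0.64 for the numbered row and -4.59 for ENSRNOG00000012067.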

How the data were processed

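By the study's methods and the labels, the authors prepared poly-A RNA with a NEBNext Ultra kit, cleaned the reads of adapters, poly-N and low-quality sequence, and assigned them to genes with featureCounts. Deposited were these counts, not normalized, on 34733 rows, of which 1850 are outside Ensembl (1.20% to 1.27% of the counts of a library at postnatal day 7). The submitters' processing notes name HISAT2 2.0.5 and the mouse builds GRCm38 and mm10, although the rows carry rat identifiers, so no coordinates are given. The annotation release and the strand setting are not given in the sources used here, so the split of reads among overlapping or near-identical genes is uncertain. With a RefSeq table of symbols, 0 Ensembl identifiers matched.

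The 6 libraries' counts were fitted in R 4.3.3 by edgeR 4.0.16, using TMM, filterByExpr and robust quasi-likelihood F tests, two-sided, and Benjamini-Hochberg adjustment over all genes tested. A standard error is the size of the log2 fold change divided by the square root of F, and an interval is that error times the t quantile. CPM used TMM-scaled totals. Groups did not overlap when the lowest library of one was above the highest of the other. DESeq2 1.42.0, the tool of the study, and limma 3.58.1 with voom were alternatives, with other size factors, filters, thresholds of CPM and interval widths, all 12 libraries, a replicate block, and each library left out. The named genes were to be the 2 of smallest unadjusted p in each direction among the well-expressed, non-overlapping genes with an unadjusted p under 0.05, together with the 20 most abundant genes. The members and lists were chosen with earlier results of these data known. No files repeated a library. P-values of the fits set the difference between the groups against the spread between these libraries, which is estimated with information from all genes.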

Additional observations from a re-analysis of the deposited data

How the results depend on the processing

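The median difference of the well-expressed genes stayed within 1.5 times of its main value in every fit run. The number of genes with an adjusted p under 0.05 (0 with edgeR) was 3 without a filter, 15 with DESeq2, 10 with DESeq2 at its default filter target (an alternative chosen after seeing the data) and 1 to 3 with 1 library left out. The unadjusted number (498) was 51 with all 12 libraries in one fit, and 443 to 938 with 1 library left out. With all 12 libraries, which share one estimate of the spread with postnatal day 3, 3263 well-expressed genes had an interval inside 1.5-fold in place of 8634, and the widest bound of the 20 most abundant genes was 1.41 log2 units in place of 0.92. This bound was 1.40 with 99% intervals and 0.97 to 1.53 with 1 library left out, 1.53 without ABS replicate 3. With 1 library left out, fewer libraries had to separate, and 736 to 1076 well-expressed genes did not overlap with ABS higher and 756 to 1168 with ABS lower. The interaction gave 5 genes with DESeq2. For the other changes the cause was not tested.

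Deviations of libraries with the same replicate number correlated at 0.009, 0.084 and -0.07, and no pairing was assumed. A fit with a replicate block gave 0 genes at the adjusted and 487 at the unadjusted threshold. In it, 8641 intervals lay inside 1.5-fold and the widest bound was 0.63. The log2 fold change of ENSRNOG00000029886 was -0.002 in this fit, -0.001 with limma and voom and -0.05 with edgeR without the block. Limma with voom and no block gave a widest bound of 0.88. The fit with the block used edgeR with the same filter and size factors as the main fit. Its bound of 0.63 and the main bound of 0.92 thus differ by the block alone. Over 52 fits of the 4 genes given in full, 0 reversed the direction and 5 put a gene past the adjusted threshold (3 with DESeq2, the numbered row without a filter, and ENSRNOG00000012067 without sham replicate 1). Log2 fold changes ranged from 0.49 to 0.78 for ENSRNOG00000004162, 0.53 to 0.86 for ENSRNOG00000029911, -0.64 to -0.57 for the numbered row and -4.59 to -3.63 for ENSRNOG00000012067. Their adjusted p ranged up to 1 from 0.126, 0.0487, 0.000111 and 1.59e-12, each the value of DESeq2. A covariate of Y-linked genes and lists of genes known by symbol were not run, because identifiers could not be paired with symbols. Under 10 CPM, few changes of 1.5-fold are bounded at this depth.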
